A study of Mus musculus with 2 samples.

Results

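In newborn mouse thymus, 355 of 8494 CpG-rich promoters had no DNase-seq peak in either replicate (4.18%). The promoters were those of autosomal protein-coding genes. For each gene the transcription start site (TSS) with the most CpG dinucleotides within 500 bp was taken, and the promoter was called CpG-rich at 60 CpG or more. A promoter was without a peak when no peak midpoint lay within 1000 bp of any coding TSS of its gene. The choice therefore rests on the peaks themselves, so the absence of a peak is a description and not a result. DNase-seq maps open chromatin by cutting nuclei with DNase I and sequencing the ends of the released fragments. The series held 1 group of 2 samples, thymus of healthy B6NCrl mice on postnatal day 0, with males and females pooled and no treatment or allele. The labels give both samples the same donor and different biosamples, so differences between them may be partly technical. Each came with 150-bp peaks and with hotspots, enriched stretches that can be wider than a peak, both listed on mm10 (GRCm38).

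CpG islands are stretches of CpG-rich, mostly unmethylated DNA that hold the start sites of most housekeeping genes and of many developmental regulators. In cells where a housekeeping gene is used, its island is kept free of nucleosomes and is cut readily by DNase I. Islands of developmental genes that a tissue does not use are often held by Polycomb complexes, and islands of germline genes are often methylated in somatic cells.

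Neither sample has a stated read depth, so a promoter without a peak is one at which none was called, and a weaker opening was not detectable here. A bulk tissue mixes cells, and a promoter open in few cells cannot be told apart from one open weakly in many. The lists held 154812 and 139702 peaks for replicates 1 and 2. Against the thymus label, all 17 thymocyte marker genes had a promoter peak in both lists. So did 6 of 7 myeloid, 6 of 10 thymic epithelial, 4 of 7 erythroid, 4 of 8 endothelial, 3 of 6 B cell and 4 of 9 mesenchymal markers. In the list of replicate 1 alone 456 CpG-rich promoters lacked a peak (5.37%), and in that of replicate 2 489 did (5.76%). A peak in replicate 1 only stood at 134 promoters and in replicate 2 only at 101, against 7904 with peaks in both. In these one-sided cases the strongest peak scored above a median of 27.5% and 23.2% of its list, against 95.8% and 96.1% for promoters with peaks in both. Of all 20722 autosomal coding promoters, CpG-rich or not, 31.9% had no peak in either list.

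The sequence of 3 members shows the CpG content that the choice rests on. The 120 bases just upstream of the TSS are shown for the member with the most CpG in 3 gene lists, a HOX gene, another homeobox gene and a germline gene, with every CpG in capitals. They were read from GRCm38, 5′ to 3′ on the gene's strand, and overlap no annotated exon. Hoxd13 is at chr2:74668190-74668309 on the plus strand, Hmx1 at chr5:35388988-35389107 on the plus strand and Meioc at chr11:102665468-102665587 on the plus strand.
Hoxd13: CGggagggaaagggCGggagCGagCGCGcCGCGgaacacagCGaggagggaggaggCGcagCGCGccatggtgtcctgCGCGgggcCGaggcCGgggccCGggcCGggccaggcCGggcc
Hmx1: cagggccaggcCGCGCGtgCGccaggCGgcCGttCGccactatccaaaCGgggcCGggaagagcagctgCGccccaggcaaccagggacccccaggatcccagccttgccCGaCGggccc
Meioc: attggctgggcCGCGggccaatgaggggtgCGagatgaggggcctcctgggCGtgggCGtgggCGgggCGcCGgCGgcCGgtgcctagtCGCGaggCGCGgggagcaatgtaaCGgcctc
These stretches held 18, 12 and 15 CpG, and the windows of 1001 bases held 118, 118 and 89. Over the 355 members the CpG count had a median of 76 and ran from 60 to 150, against a median of 83 for the 8139 CpG-rich promoters with a peak. The 500 bp upstream of the TSS held a median of 34 CpG in members and 36 in promoters with a peak, and the 500 bp downstream 46 and 49. GC content was alike, with medians of 64.8% and 64.3%. The ratio of observed to expected CpG had a median of 0.760 in the members and 0.829 in promoters with a peak.

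The share of promoters without a peak was lower in each class of higher CpG count. It was 5.98% at 60 to 69 CpG, 5.02% at 70 to 79, 3.58% at 80 to 99, 2.80% at 100 to 119 and 2.07% at 120 to 181. In the lists of replicates 1 and 2 alone it was 7.77% and 7.67% in the lowest class and 3.29% and 4.15% in the highest. The order of the classes was the same in both replicates.

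**Figure D1:**
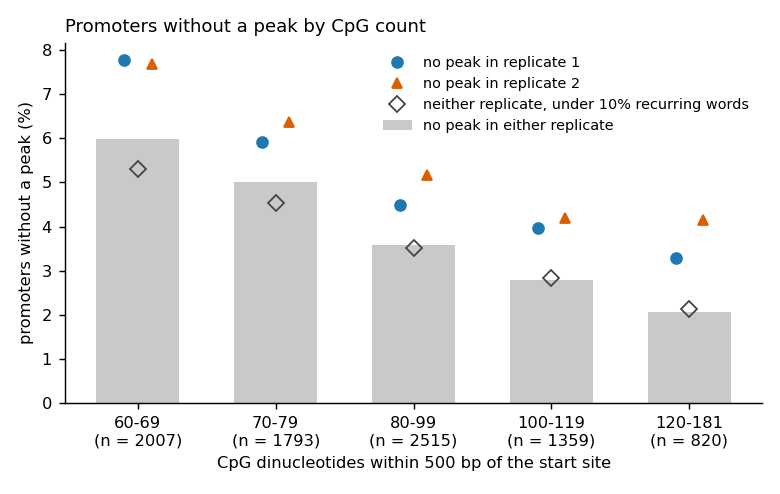
Share of CpG-rich promoters without a peak (%, vertical axis) by CpG count within 500 bp of the TSS (horizontal axis, with the number of promoters). Bars give no peak in either replicate, circles and triangles replicates 1 and 2 alone, and diamonds the promoters in which under 10% of 31-base words recur in the genome. The bars step down from 5.98% at 60 to 69 CpG to 2.07% at 120 to 181.

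Among the 20 members with the most CpG, Tmem200b led with 150 CpG, with its nearest peak midpoint 1541 bp away in replicate 1 and 1621 bp in replicate 2. Ajap1, an adherens junction protein, had 139 CpG and its nearest peaks 125101 and 425019 bp away. Chd5, a chromatin remodeller of neurons and testis, had 135 CpG, with peaks 2203 and 2223 bp away inside its gene. Rnf217, a ubiquitin ligase, had 137 CpG and no peak within 133446 bp in either list. Npas3, a brain transcription factor, had 133 CpG and peaks 48104 and 48084 bp away. Nrg3, a neuregulin that signals through ERBB4, had 131 CpG and peaks 59782 and 1366622 bp away. The others included Mpped1, Hs3st4, Mgat3, She, Jph3, Klf15, Gli3, Glis1, Prkd1, Zdbf2, Aqp5, Hmx1 and Hoxd13, at 118 to 138 CpG. Taking the nearer replicate for each gene, distances in this group ran from 1432 bp at Aqp5, a water channel of glands, to 294712 bp at Prkd1, a protein kinase.

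The lists of transcription factor families held 53 of the members among 207 CpG-rich promoters, or 25.6%, against 4.18% of all CpG-rich promoters. In the lists of replicates 1 and 2 alone the counts were 64 and 75 of 207. Pooled here were HOX, other homeobox, forkhead, SOX, bHLH and T-box genes and ZIC, GLI, SALL and GATA zinc fingers. The last list also held Wt1 and Fezf2. Zfp and Zscan genes were kept apart, with 3 of 129 (2.33%), and factors such as Klf15 and Npas3 were on no list. Below, transcription factor promoters and members are those of the pooled lists only. The lists were chosen by gene symbol, with earlier results of these data known, and count only genes with a CpG-rich promoter. Their shares are therefore a description. Housekeeping genes stood at the other end. Of 260 CpG-rich promoters of ribosomal proteins, proteasome subunits, translation factors, respiratory chain subunits and replication and mitosis genes, 0 lacked a peak, in either replicate's own list too. The same held for the 17 CpG-rich promoters in a list of 45 thymocyte genes, too few to set 0 apart from 4.18%. This list is not the set of 17 thymocyte markers above, of which 2 had a CpG-rich promoter.

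**Figure D2:**
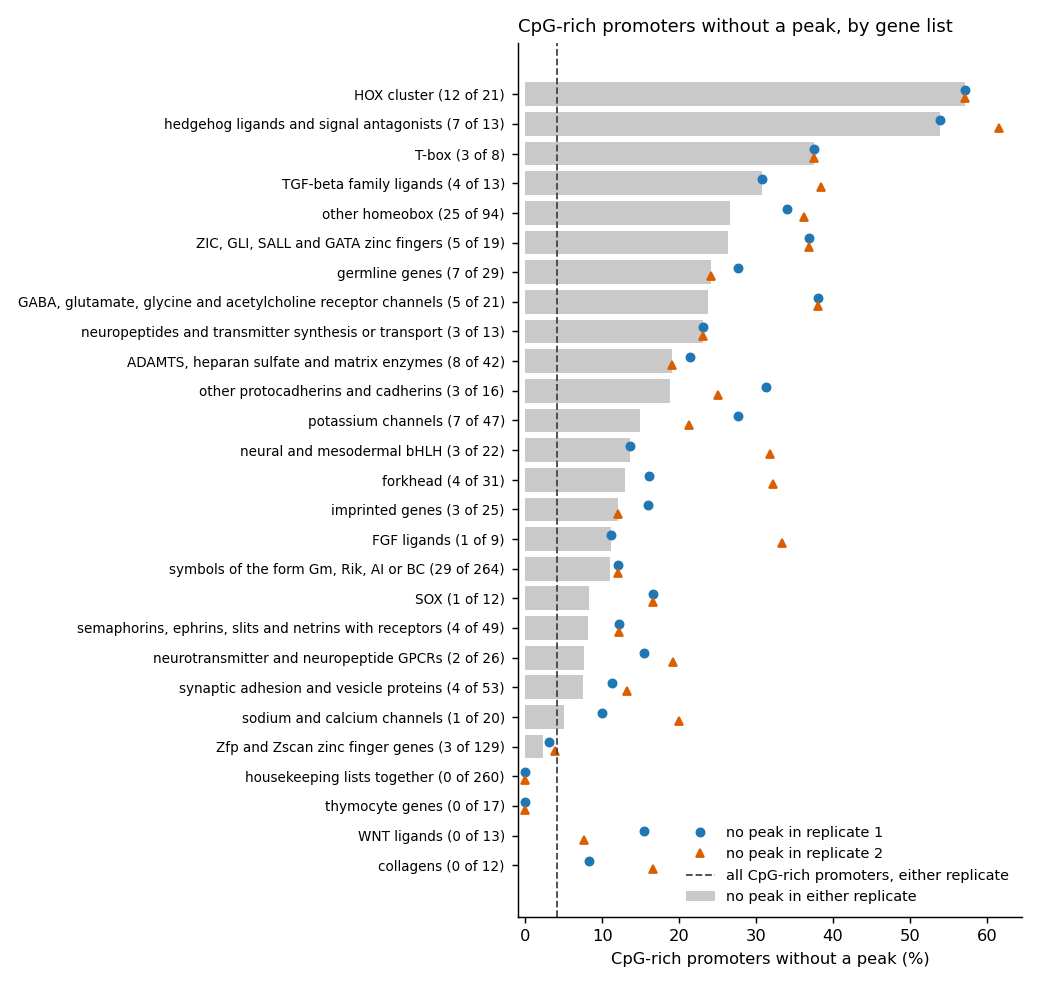
Share of CpG-rich promoters without a peak (%, horizontal axis) for each gene list with at least 8 CpG-rich promoters, with the counts beside the list's name. Bars give no peak in either replicate, circles replicate 1 alone, triangles replicate 2 alone, and the dashed line the 4.18% of all CpG-rich promoters. HOX genes reach 57.1% and the housekeeping lists together 0%.

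HOX genes, which set position along the body axis, had the highest share among the lists when both replicates were joined. Of 21 CpG-rich HOX promoters 12 had no peak (57.1%), and the count was 12 in each replicate's own list. The split differed by cluster. On chromosome 6, Hoxa4, Hoxa5, Hoxa7, Hoxa10 and Hoxa13 had a peak within 324 bp in both replicates, while Hoxa9 had its nearest 4399 bp away and Hoxa11 5260 and 5280 bp away. On chromosome 2, Hoxd13, Hoxd11, Hoxd9 and Hoxd3 were without a peak, and Hoxd8 and Hoxd1 had one. Hoxd13, a gene of the distal limb, had its nearest peaks 3660 and 4560 bp away. On chromosome 15 all 3 CpG-rich members, Hoxc13, Hoxc12 and Hoxc8, lacked a peak, and for Hoxc13, a gene of hair and nails, the nearest lay 45467 and 45487 bp away. On chromosome 11, Hoxb9, Hoxb7 and Hoxb6 lacked one, and Hoxb5 had peaks 282 and 262 bp away. Promoters with and without a peak thus stood beside each other within a cluster. The highest count of peaks shared by both replicates and assigned to a HOX member was 3, at Hoxb9.

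The other homeobox genes had 25 of 94 CpG-rich promoters without a peak (26.6%), and 32 and 34 in the replicates' own lists. Hmx1, a gene of eye and ear development, had 118 CpG and peaks 2793 and 9098 bp away. Barx1, a stomach and tooth gene, had peaks 5048 and 7188 bp away. En2, which patterns the midbrain and hindbrain, had 113 CpG and a peak 1156 bp away in both replicates, in an exon. Irx1, an Iroquois gene, had peaks 2803 and 2783 bp away. The list also held Otx1 and Otx2 of the forebrain, with peaks 27265 and 35473 bp away and 35771 and 35731 bp away. Over the 25 members of the list the nearest peak ran from 1077 bp away, at Hmx3, to 35731 bp away, at Otx2.

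Forkhead genes had 4 of 31 without a peak (12.9%), Foxd3, Foxp2, Foxa2 and Foxl1. Foxa2, a gene of endoderm and floor plate, had a peak 1681 bp away in both replicates. Foxp2, known for its part in speech circuits, had peaks 20797 and 62279 bp away. The forkhead count was 5 in replicate 1 alone and 10 in replicate 2 alone, so the replicates differed more here than for HOX genes. Of 12 SOX promoters the only one without a peak (8.33%) was Sox18, a gene of blood and lymph vessels, with peaks 1090 and 4990 bp away. Each replicate's own list had 2. The bHLH list had 3 of 22 (13.6%), Bhlhe23, the tendon gene Scx and the hair cell gene Atoh1. Its count in replicate 2 alone was 7.

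The T-box list had 3 of 8 without a peak, Tbx2, Tbx15 and T. T, the brachyury gene of mesoderm, had 65 CpG and a peak 10933 bp away in both replicates. Tbx1, Eomes, Tbx3, Tbx21 and Mga had a peak. In the list of ZIC, GLI, SALL and GATA zinc fingers 5 of 19 were without (26.3%), Gli3, Glis1, Wt1, Fezf2 and Gata5. Wt1 and Fezf2 are zinc finger genes of other families that the list also holds. Gli3, an effector of hedgehog signalling, had 121 CpG and peaks 53610 and 96565 bp away. Wt1, a kidney and gonad gene, had a peak 1220 bp away in replicate 1 and none within 57587 bp in replicate 2. Fezf2, a gene of forebrain projection neurons that medullary thymic epithelium also uses, had its nearest peaks 60994 and 61054 bp away. By contrast the large list of Zfp and Zscan genes had 3 of 129 without a peak (2.33%), Zfp541, Zfp804a and Zfp853, with 4 and 5 (3.10% and 3.88%) in the replicates' own lists.

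Secreted signals made up 12 members of 48 CpG-rich promoters (25%). The list of hedgehog ligands and signal antagonists had 7 of 13 without a peak (53.8%), and 7 and 8 in the replicates' own lists. Its members were the cartilage signal Ihh, the BMP antagonists Nbl1, Chrd and Grem1, the WNT antagonist Sfrp5, and Rspo1 and Rspo2, which enhance WNT signalling and are no antagonists. Rspo1 had a peak 2380 bp away in both replicates, and Chrd had peaks 1441 and 1121 bp away. Of the same list Nog, Sfrp1, Fst, Sfrp2, Fstl4 and Wif1 had a peak. The TGF-beta family had 4 of 13 without a peak, Bmp2, Bmp8b, Gdf10 and Gdf7. Bmp2, an inducer of bone, had a peak 1829 bp away in both replicates. Of 9 FGF ligands only Fgf5, a regulator of hair growth, was without one (11.1%), with 1 and 3 in the replicates' own lists. WNT ligands had 0 of 13 in the lists joined, with 2 lacking a peak in replicate 1 alone and 1 in replicate 2 alone. A list this short cannot set 0 apart from the 4.18% of all CpG-rich promoters.

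Ion channel genes made up 13 members of 88 CpG-rich promoters (14.8%), against 4.18% of all, with 23 and 22 in the replicates' own lists. Potassium channels had 7 of 47 (14.9%), among them Kcnk9, Kcnk2, Kcnd2, Kcnk1 and Kcnip1, and 13 and 10 in the replicates' own lists. Kcnk9, a leak channel, had peaks 3230 and 3210 bp away, and Kcnk2, also a leak channel, had peaks 5198 and 4998 bp away. Receptor channels had 5 of 21 (23.8%), among them Glrb, Gabrg3, Grin3a and Grin2a, and 8 in each replicate's own list. Gabrg3, a GABA receptor subunit, had no peak within 122162 bp, and Grin3a, an NMDA receptor subunit, none within 112921 bp. Sodium and calcium channels had 1 of 20 (5%), Cacng7, with 2 and 4 in the replicates' own lists. That share was close to the 4.18% of all CpG-rich promoters.

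The other neuronal lists varied, and each rested on few genes without a peak. The share of all CpG-rich promoters was 4.18%. Neurotransmitter and neuropeptide receptors had 2 of 26 without a peak (7.69%), Drd5 and Crhr2, with 4 and 5 in the replicates' own lists. Synaptic adhesion and vesicle proteins had 4 of 53 (7.55%), Nrg3, Dscam, Dlgap2 and Syt10, with 6 and 7. Guidance genes had 4 of 49 (8.16%), the netrin receptors Unc5d and Unc5c, Sema6d and Slit1, with 6 in each replicate's own list. Unc5d had the second longest distance of the 355 members, with peaks 1051774 and 911674 bp away. The list of neuropeptides and genes for transmitter synthesis or transport had 3 of 13 (23.1%), also in each replicate's own list. All 3 were transporters, the vesicular acetylcholine transporter Slc18a3, the GABA transporter Slc6a11 and the noradrenaline transporter Slc6a2.

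Among surface and matrix genes, cadherins and protocadherins outside the clusters had 3 of 16 without a peak (18.8%), Dchs1, Cdh8 and Cdh7. The replicates' own lists had 5 and 4. The list of ADAMTS, heparan sulfate and matrix enzyme genes had 8 of 42 (19.0%), led by the sulfotransferase gene Hs3st4 with 128 CpG. Its others with the most CpG were Adamtsl3, the glypican gene Gpc6 and Adamts18. Collagens had 0 of 12, with 1 and 2 in the replicates' own lists, also too few to set 0 apart from 4.18%.

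Germline genes had 7 of 29 without a peak (24.1%), and 8 and 7 in the replicates' own lists. They were Meioc, needed for meiosis, Tdrd6 of the chromatoid body, the RNA helicase gene Ddx4, the synaptonemal complex gene Sycp1, and Adad1, Mael and Fkbp6. Ddx4 had peaks 6351 and 6371 bp away, and Sycp1 had its nearest 42320 and 59610 bp away. Of 25 CpG-rich imprinted genes 3 were without a peak (12%), Zdbf2, Rasgrf1 and Nnat, all known as paternally expressed. Zdbf2 had 121 CpG and no peak within 90215 bp. Nnat had a peak 1020 bp away in replicate 1 and 6260 bp away in replicate 2, in an exon.

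Of the 355 members 144 were on at least 1 list and 211 on none. Symbols of the form Gm, Rik, AI or BC, which mark genes without a given name, supplied 29 of the 144. They were 29 of 264 CpG-rich promoters with such symbols, against 355 of all 8494 CpG-rich promoters. In each replicate's own list 32 of the 264 lacked a peak. Of these 29 members, 22 lay in sequence that recurs in the genome. The counts of 144 and 22 are not set beside those of promoters with a peak.

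A set of members lay in repeated sequence. For each window of 1001 bases the 31-base words found more than once in GRCm38 were counted. A second copy inside the same window counted too. At least 10% of words recurred in 42 members (11.8%), against 5.17% of all CpG-rich promoters. At least 90% recurred in 33 CpG-rich promoters, of which 29 had no peak, in each replicate's own list too. The 4 with a peak were Cntfr, Hist2h3c1, Hist2h3c2 and Trim7, named here after their values were seen. Between 10% and 90%, 13 of 406 promoters were without a peak (3.20%), and below 10% it was 313 of 8055 (3.89%). Chromosome 14 held 19 of the 42 members, chromosome 17 held 6 and chromosome 12 held 5. Whether reads that map to several places were kept when the peaks were called is not given in the sources used here, and the part of mapping in these members was not tested.

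Near-identical copies were common among them. Srp54b and Srp54c, copies of the gene for a subunit of the signal recognition particle, are shown as an example. The 120 bases upstream are at chr12:55154984-55155103 and chr12:55230048-55230167, both on the plus strand, and were the same in every base, CpG in capitals.
Srp54b: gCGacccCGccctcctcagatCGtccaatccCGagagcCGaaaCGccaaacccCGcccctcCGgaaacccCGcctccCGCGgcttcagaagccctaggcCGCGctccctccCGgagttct
Srp54c: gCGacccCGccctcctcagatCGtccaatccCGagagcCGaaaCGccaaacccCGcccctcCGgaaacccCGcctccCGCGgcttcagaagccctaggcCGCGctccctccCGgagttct
Over the whole window of 1001 bases the pair had 0 mismatches. The same was true of Entpd4 and Entpd4b and of Slc25a37, a mitochondrial iron importer, and Gm16867. Both Srp54 copies stood in a group of 4 members on chromosome 12 with Fam177a and 1700047I17Rik2. Other groups were 6 members on chromosome 17, among them Tcte3 and Ermard, and the histone genes Hist1h2ao, Hist1h2ap, Hist1h2bq and Hist1h2br on chromosome 13. Flg, the filaggrin gene of skin, was a further member with 96.8% of words recurring. The HOX members Hoxd3 and Hoxc8 were just past the limit, at 12.6% and 10.4%.

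Short consensus sequences of promoter-binding factors were searched in the 300 bases from 250 before the TSS to 50 from it, on both strands. A match describes letters and is not evidence of binding. ETS factors, NRF1 and YY1 bind the promoters of many housekeeping genes. The ETS consensus CCGGAAGT was in 3 of 355 members (0.845%), against 7.59% of CpG-rich promoters, 7.89% of those with a peak and 5.31% of all 20722 promoters. The NRF1 consensus, the letters in capitals in the Nnat line below, was in 1 member (0.282%), against 2.31%, 2.40% and 1.34%. The YY1 consensus, in capitals in the Oxct2b line, was in 2 members (0.563%), against 1.97%, 2.03% and 1.08%. At least 1 of the 3, which do not contain each other, was in 6 members (1.69%), against 11.5% of CpG-rich promoters. These 6 are shown as 30 bases each with the match in capitals, from the first base of the match counted with the TSS as 1. Esyt3 is at chr9:99358599-99358628 (minus, match at -99), Fkbp6 at chr5:135350023-135350052 (minus, 4), Uggt2 at chr14:119099421-119099450 (minus, -9), Nnat at chr2:157560042-157560071 (plus, -26), Chd5 at chr4:152338817-152338846 (plus, -61) and Oxct2b at chr4:123116277-123116306 (plus, 21).
Esyt3, ETS: tggtggcggagACTTCCGGatttccctgcc
Fkbp6, ETS: cgtggtgcctgACTTCCGGggtcgtttccg
Uggt2, ETS: agctccccccaCCGGAAGTggacggcggag
Nnat, NRF1: tcccccaagcGCGCATGCGCacttaggtgg
Chd5, YY1: gggccggcgGCCGCCATCTTcttgccgaga
Oxct2b, YY1: tggctgtggAAGATGGCGGCgctgaggctt
Promoters with a peak give the same letters in other settings. They are shown for the lymphoid transcription factor gene Tcf3 (chr10:80433865-80433894, minus, -236), the ribosomal protein gene Rps6 (chr4:86857440-86857469, minus, -46), the replication kinase gene Cdc7 (chr5:106964337-106964366, plus, -214) and the proteasome gene Psmd11 (chr11:80428653-80428682, plus, 40).
Tcf3, ETS: gactatctctgCCGGAAGTactttagtatt
Rps6, ETS: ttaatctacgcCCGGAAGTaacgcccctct
Cdc7, NRF1: gggaagaatcGCGCATGCGCgcctggcggc
Psmd11, YY1: gagagcggtAAGATGGCGGCcgcagcggtg

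The lower share of the ETS consensus was present in both classes of CpG count among promoters with under 10% of words recurring. At 60 to 79 CpG it was in 2 of 174 members (1.15%) and in 10.04% of promoters with a peak. At 80 CpG or more it was in 1 of 139 members (0.719%) and in 6.13%. Apart from ETS, NRF1 and YY1, the consensus sequences held by at least 90 CpG-rich promoters differed less as a ratio. The GC box GGGCGG of SP and KLF factors was in 71.0% of members and 80.4% of promoters with a peak, and in 49.5% of all promoters. CCAAT, bound by NFY, was in 29.9% and 32.3%, the E2F6 sequence TCCCGC in 49.0% and 48.8%, and the E-box CACGTG in 12.1% and 10.8%. Over all promoters these 3 were in 36.6%, 28.8% and 8.08%. The TATA box TATAAA was in 4.79% of members, 4.13% of CpG-rich promoters and 11.9% of all promoters. The palindromic ZBTB33 sequence was in 3 members, Fbn1, Sycp1 and D1Pas1, against 1.2% of CpG-rich and 0.613% of all promoters. CREB's TGACGTCA was in 8 members (2.25%), against 3.57% of CpG-rich and 2.51% of all promoters, and RUNX's TGTGGT in 6.48%, 8.31% and 14.2%. The TCF7 and LEF1 sequence CTTTGATC was in 2 members, Gpr12 and Nags (0.563%), against 0.389% of CpG-rich and 0.758% of all promoters. The GFY, CTCF and REST sequences were in none, against 0.341%, 0.224% and 0.0353% of CpG-rich promoters. Only 29, 19 and 3 CpG-rich promoters held them, too few to compare.

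**Figure D3:**
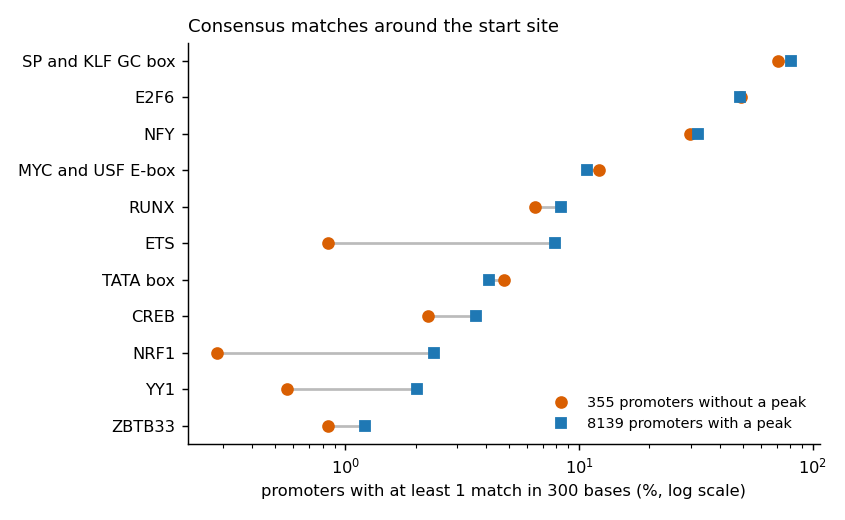
Share of promoters with at least 1 match in 300 bases (%, horizontal log axis) for each consensus held by at least 90 CpG-rich promoters, in the 355 promoters without a peak (circles) and the 8139 with a peak (squares). The widest gaps are at ETS, 0.845% against 7.89%, NRF1, 0.282% against 2.40%, and YY1, 0.563% against 2.03%.

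Hotspots added little to the peaks at these promoters. Of the 355 members 10 had a hotspot within 1000 bp of a coding TSS (2.82%), 9 in replicate 1 and 6 in replicate 2, and 5 in both (1.41%). Over all CpG-rich promoters 95.9% had a hotspot in either list, 94.8% in replicate 1, 94.4% in replicate 2 and 93.3% in both. None of the 15 hotspots at members covered a coding TSS, and the nearest edge was 786 bp away, at Htra3. All 15 held at least 1 peak, whose midpoint lay just past 1000 bp. In both deposited lists every hotspot held a peak and every peak lay in a hotspot (100%), so hotspots were no independent readout.

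The 5 members with hotspots in both replicates were Adcyap1r1, Esrrb, Fcgr3, Foxd3 and Marc1. Fcgr3, an Fc receptor gene of myeloid and NK cells, had the widest, 401 and 600 bp, at the highest deposited −log10 q-value of 100 in both. In its window 85.7% of words recurred. Marc1 also reached 100 in both, with hotspots of 330 and 332 bp whose edges were 858 and 859 bp from the TSS. Adcyap1r1, a receptor of the neuropeptide PACAP, stood at 100 in replicate 1 and 6 in replicate 2. Esrrb, an orphan nuclear receptor of pluripotent cells, stood at 2.79 and 3.04, and Foxd3, a gene of neural crest, at 3.55 and 4.01. The other 5 had a hotspot in 1 replicate only, Htra3, Jakmip3, Nnat and Slc18a3 in replicate 1 and Tril in replicate 2. Hotspots at members marked openings about 1 kb from the start site. This follows from the choice of members, since every hotspot held a peak and no peak midpoint lay within 1000 bp.

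The nearest peak lay at a median of 7690 bp from a coding TSS of the gene, with 9228 bp in replicate 1 and 13044 bp in replicate 2. The distances ran from 1011 bp at Foxd3 to 1434739 bp at Cdh8, a cadherin of neurons. Within 1500 bp lay 35 members, from 1501 to 2500 bp 38, from 2501 to 5000 bp 61 and from 5001 to 10000 bp 62. From 10001 to 50000 bp lay 101, from there to 100000 bp 23, and beyond 100000 bp 35. Just inside the 1000-bp limit for membership were Foxd3 at 1011 bp, Adcyap1r1 at 1014, Nnat at 1020, Jakmip3 at 1031 and Tril at 1040. Just outside, and so not members, were Fam19a5 at 1000 bp, Fgf4 at 997 and Foxa1 at 991, each through replicate 1 only. In replicate 2 their nearest peaks were 335660, 1017 and 1031 bp away. At the CpG minimum, 12 of 207 promoters with 60 CpG had no peak, among them Atoh1, Dlx3, Egfr, Esrrb and Fgfr4. At 59 CpG 14 of 197 had none, among them Atp12a, Dach1, Dusp26, Efnb3 and Elmod1.

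**Figure D4:**
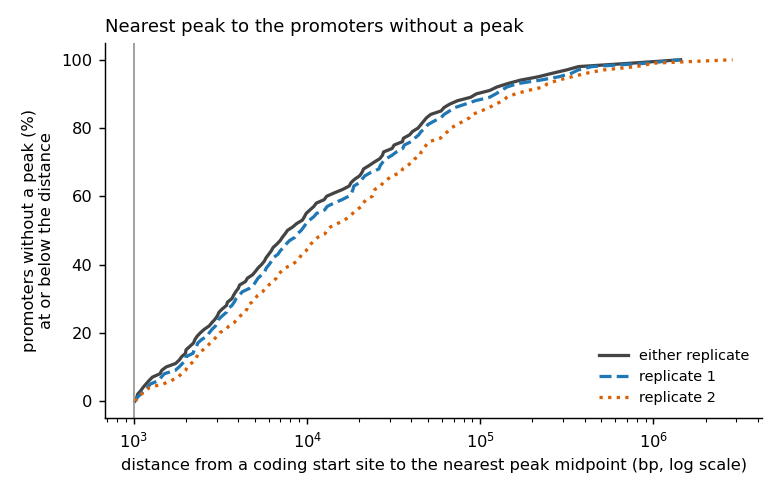
Cumulative share of the 355 members (%, vertical axis) by distance from a coding TSS to the nearest peak midpoint (bp, horizontal log axis), for peaks of either replicate (solid), replicate 1 (dashed) and replicate 2 (dotted). The grey line marks the 1000-bp limit, and the medians are 7690, 9228 and 13044 bp.

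These nearest peaks often had low scores and were often in 1 replicate only. The nearest was taken from either list, and the same was not counted for other CpG-rich genes. They scored above a median of 30.3% of the peaks in their list, and for 164 of 355 (46.2%) a peak in the second list lay over the same place. By position 147 were in introns, 140 between genes, 44 in exons and 24 at the promoter of another gene, and 151 lay inside the member's own gene. At transcription factor members the median distance was 3736 bp and the longest 60994 bp, for Fezf2. At the 8 members of the matrix list the median was 28951.5 bp. The farthest after Cdh8 were Unc5d, Mmp16, Ptprd and Gpc6, at 911674, 824619, 804847 and 699614 bp, of which Ptprd was named after its values were seen. Each of these 5 had 0 distal shared peaks assigned, which their distances fix, since peaks are assigned only within 100 kb.

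Distal shared peaks were sparse around the members. These are peaks of replicate 1 that overlap a peak of replicate 2 by at least 1 bp, lie over 1000 bp from every coding TSS, and are given to the gene with the nearest coding TSS within 100 kb. Members had a median of 1 and genes with a promoter peak a median of 3. No such peak fell to 130 members (36.6%), against 18.9% of genes with a promoter peak. Over all CpG-rich genes 80.4% had at least 1. Among promoters with under 10% of words recurring, 35.6% of members and 22.5% of the others had none at 60 to 79 CpG. At 80 CpG or more it was 24.5% and 15.2%. Peaks just past 1000 bp from a promoter with a peak count as distal. The lower quartile of the distance to the nearest distal shared peak was 5072 bp for members and 1527.5 bp for genes with a promoter peak. Distal shared peaks of members scored above a median of 57.2% of the replicate 1 list. For those of CpG-rich genes with a promoter peak it was 61.1%. The stretch of genome nearest to a gene was longer for members, with medians of 114 and 58.0 kb, and per 100 kb of it the medians were 0.925 and 4.77. At 60 to 79 CpG, among promoters with under 10% of words recurring, the medians per 100 kb were 0.834 and 4.46, and at 80 CpG or more 1.73 and 4.996. The nearest distal shared peak was beyond 100 kb for 20% of members and 1.54% of other genes. Since both counts come from the same peak lists as the choice of members, they are a description.

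**Figure D5:**
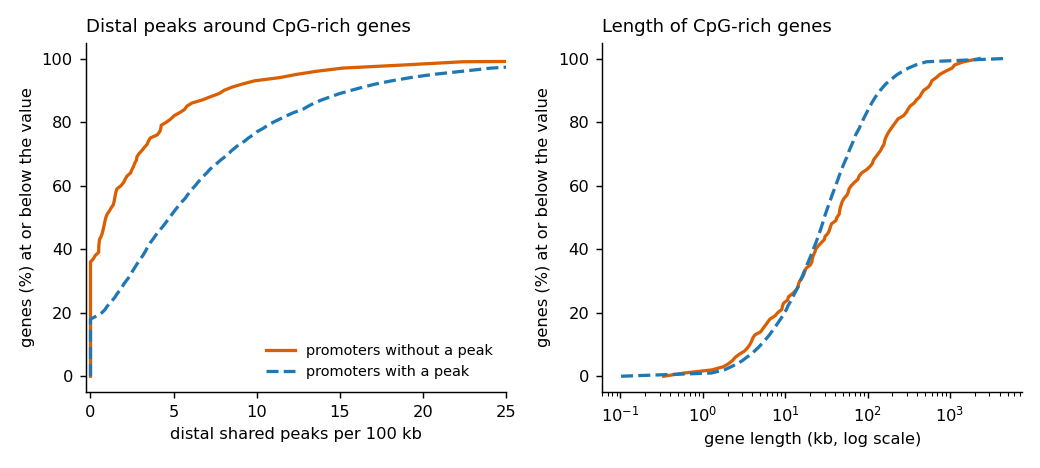
Cumulative share of CpG-rich genes (%, vertical axes) by distal shared peaks per 100 kb (left, axis drawn to 25) and by gene length (right, kb, log axis), for promoters without a peak (solid) and with a peak (dashed). Left, 7 genes with a peak that share all start sites with another gene are not drawn; the medians are 0.925 and 4.77. Right, the medians are 42.4 and 29.9 kb.

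A few members stood among many distal peaks. Sfi1, a centrosome gene, had 58 shared distal peaks, and BC107364 had 27. In 52 of the 58 and in 14 of the 27 at least 10% of 31-base words recurred in the genome, against 12.2% of the 882 distal shared peaks of all members and 6.64% of those of other CpG-rich genes. Without these 2 genes the share for members was 5.27% of 797. Whether repeated sequence made these peaks was not tested. Next came She and Skor1 with 15, 4933428G20Rik, Esrrb and Trpv4 with 13, and Dmrta2, Galntl6 and Hmcn2 with 12. She, an adaptor protein gene with 126 CpG, had a peak 7580 bp away in both replicates. Trpv4, a calcium channel gated by osmotic and mechanical stimuli, had peaks 2531 and 2511 bp away in an intron. Skor1, a transcriptional corepressor gene of neurons with 113 CpG, had peaks 2329 and 2349 bp away. In each of these 8 genes at most 3 of the distal shared peaks, the number at She, had at least 10% of words recurring.

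Members included more genes at both ends of the range of gene length. Gene length had a median of 42.4 kb, against 29.9 kb for genes with a promoter peak, and 123 members (34.6%) were over 100 kb, against 16.5%. Under 5 kb were 50 members (14.1%), against 9.82%. Over 500 kb were 35 members (9.86%), against 1.06%. Of the 121 CpG-rich genes over 500 kb, 28.9% were members. In 17 of the 35 the nearest peak lay inside the gene, and 12 had no distal shared peak. Transcription factor members were short by comparison, with a median of 6.57 kb. Gene length was not used in choosing the members.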

How the data were processed

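DNase-seq of thymus was deposited as a peak list and a hotspot list for each of 2 replicates on mm10, called per library. No caller is named in the material used. The peak score, from 1 to 150, is the authors' deposited score, and the hotspot value is the deposited −log10 q-value, capped at 100. Both were used only to rank or describe regions within a list. No read depth is given.

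Start sites came from 21853 protein-coding genes of GENCODE M21 and sequence from GRCm38, the same build. CpG, 31-base words and consensus matches were counted in Python 3.11.15 with numpy 2.4.6, pandas 2.3.3 and numba 0.67.0, on code tested on simulated data. With 1 group of 2 samples no test was possible over samples, and promoters are not replicates, so members are described by counts and shares beside those of all CpG-rich promoters.

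The members and the gene lists were chosen with earlier results of these data known. Genes were named by rule: the 20 members with the most CpG, the 4 of each list with the most CpG and, where fewer than 4 CpG-rich genes of a list have a peak, those, the 10 with the most distal shared peaks, the 10 with the widest hotspots, the 5 with the most recurring words, and 5 on each side of both limits. Further members of lists are named beside a count, and some genes that the rule names are not reported here. Alternatives changed the CpG minimum, the window, the peaks used, the start sites, the overlap and repeated sequence, and left out each replicate.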

Additional observations from a re-analysis of the deposited data

How the results depend on the processing

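No read depth is given, so the counts have no detection limit, and with 2 samples the spread is that between the values of the lists of replicates 1 and 2 used alone. With 1 replicate left out, 456 to 489 promoters lacked a peak (5.37% to 5.76%). The share of those with a hotspot was then 2.86% to 3.07%, the median distance 8066.5 to 10473 bp, the median number of distal peaks 2 to 3 and the share of transcription factor promoters without a peak 30.9% to 36.2%.

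With at least 50 CpG the share of promoters without a peak was 4.97%. With at least 80 CpG it was 3.09%, for 145 promoters, the median distance was 5867 bp, the median number of distal shared peaks 2 and the share of transcription factor promoters 18.6%. A window of 500 bp gave 5.18%, hotspots in both replicates at 2.05%, 5025 bp, 2 distal shared peaks and 34.3%, and a window of 2500 bp gave 3.32%, 0.709%, 13075.5 bp and 17.4% for the same values, with the number of distal peaks at 1 as reported. With the stronger 50% of peaks 870 promoters (10.2%) lacked one, 35.4% of them had hotspots in both replicates, the median distance was 17322.5 bp and 51.7% of transcription factor promoters lacked a peak, against 0.385% of the housekeeping promoters, 1 of 260. Where only the TSS with the most CpG had to be free of peaks the share was 4.72%, with hotspots in both replicates at 10.5%. Among promoters with under 10% of words recurring it was 3.89%, with a median of 2 distal shared peaks. The share with hotspots in both replicates was 0% when a peak needed only to overlap the window, when the hotspot had to cover the TSS, and when it had to cover 150 bp of the window, and 0.563% with hotspots at the highest value only. The nearest peak shared by both replicates lay at a median of 18349 bp. The share of HOX promoters without a peak ran from 42.9% (3 of 7, at least 80 CpG) to 61.9%. The thymocyte promoters, which were few, stayed at 0% throughout. Some of these moves follow from the settings. A single list holds fewer peaks than both joined, and its distal peaks need not be shared. A wider window leaves fewer promoters without a peak, and only those farther from one. With the stronger 50% of peaks the hotspots were not filtered. The cause of the other moves was not tested.

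No paired analysis was possible because the series has 1 group.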

Other observations

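Some gene groups outside the lists recurred among the members. They were named after the members were seen, so their counts support nothing. All 4 CpG-rich IgLON genes, adhesion proteins of neurons anchored to the membrane by a lipid, were without a peak: Iglon5, Negr1, Ntm and Opcml. Negr1 had its nearest peaks 82020 and 81980 bp away, Ntm 2326 bp away in both replicates, and Opcml 2213 and 142227 bp away. Both CpG-rich CSMD genes, Csmd1 and Csmd2, were without a peak, as were 3 of 4 TMEM132 genes, Tmem132c, Tmem132d and Tmem132e. Of the CpG-rich ERBB receptor genes Egfr and Erbb4 were without a peak and Erbb2 had one. Of the VEGF receptor genes Flt1 was without one and Kdr had one. Of 4 CpG-rich FGF receptor genes only Fgfr4 was without a peak, and of 14 receptor tyrosine phosphatase genes Ptprd, Ptprt and Ptprz1 were.

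The X chromosome stood outside the choice of members. There 23 of 179 CpG-rich promoters had no peak in either list (12.8%), 6 of them with at least 10% of 31-base words recurring. Among them were the developmental transcription factor gene Sox3 and the glypican gene Gpc4.

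Among the autosomes the share without a peak ran from 2.04% on chromosome 10 to 9.78% on chromosome 14. On chromosome 14, 12 of the 31 members had under 10% of words recurring.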
